A study of Mus musculus with 32 samples.

Results

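The comparison set the testis of mice given the higher doses of CBL0137, 60 and 90 mg/kg, against the testis of mice given vehicle or 30 mg/kg. It took in 8 arrays of the 32 in the series, 4 on each side, chosen by organ and dose alone. All mice were male NIH Swiss animals aged 7 weeks, and the organs were collected 24 hours after 1 intravenous dose. The vehicle was 5% dextrose, and CBL0137 is a DNA-binding small molecule that traps FACT, a histone chaperone, on chromatin. The series also holds spleen, liver and lung, with 2 arrays for each organ and dose, and its title sets organs with FACT beside organs without it. The labels do not say which organs these are, and the FACT subunits were not analysed here. Nor do they state if each array was a mouse of its own, and the p-values therefore measure the spread between arrays, which may be technical.

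Most of the RNA of the adult testis comes from germ cells, which pass from spermatogonia through meiosis to round and elongating spermatids. Sertoli cells nurse them inside the tubule, and Leydig cells, peritubular myoid cells, macrophages and vessels lie around it. The blood-testis barrier, formed by Sertoli cell junctions, keeps many drugs away from meiotic and later germ cells. In many other cells CBL0137 is known to activate p53 and to raise interferon-stimulated genes, 2 responses whose genes were followed here. Many interferon-stimulated genes carry a GAAA-repeat element in their promoters.

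The 8 testis arrays carried their organ's signature. The 17 genes of elongating spermatids on the array had a summed intensity of 187000 to 198100 in the testis arrays, against 94.7 to 37270 in the arrays of the other organs. Over the 10713 genes tested in testis, with 1 probe each, the 2 arrays of a dose correlated at r = 0.985 to 0.990. Vehicle array 1 stood apart, with a median correlation of 0.984 with the other testis arrays, against 0.987 to 0.991 for the rest. Array 1 at 30 mg/kg held liver and lung transcripts. Its 11 hepatocyte plasma protein genes summed to 1870, against 150 to 472 in the other testis arrays, and its 7 lung epithelial genes, a list added after the values were seen, summed to 1142. Lung epithelial genes were also present in array 2 at 60 mg/kg (515) and in arrays 1 and 2 at 90 mg/kg (322 and 307), and summed to 36.0 to 66.7 in the 4 remaining arrays.

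Of 10713 genes tested, 1 gene, Fcgr3, changed between the sides. This is 0.00933% of the genes, and no gene was higher. Values are log2 differences of intensity + 16, higher doses minus lower doses, and a gene was called at an adjusted p under 0.05 (limma, Benjamini-Hochberg over all genes tested). Without adjustment 861 genes (8.04%) had a p under 0.05, of which 434 were higher and 427 lower, and the median over all genes was -0.003, with 49.2% of values above 0 and 50.8% below. In 543 genes (5.07%) the sides did not overlap, with the higher-dose arrays all above the others in 2.91% and all below in 2.16%. The median SE was 0.13, and the 95% interval of 98.7% of genes lay within 2-fold in either direction. The offset of 16 draws dim genes toward 0, so such an interval does not bound the change of a dim gene.

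Fcgr3, the low-affinity Fc receptor III of macrophages, natural killer cells and neutrophils, was 2.58-fold lower at the higher doses. Its intensity was 793 and 784 in the vehicle arrays, 735 and 949 at 30 mg/kg, 341 and 327 at 60 mg/kg, and 304 and 253 at 90 mg/kg. The sides did not overlap, and the lowest of the lower-dose arrays was above the highest of the higher-dose arrays by more than the range of either side. The mean was 815 ± 92.9 (SD, n = 4) on the lower side and 306 ± 38.6 (SD, n = 4) on the higher side, a fall by 1.37 ± 0.12 (SE) on the log2 scale (limma, adjusted p = 0.0144). The step lay between 30 and 60 mg/kg, with a difference of -1.28 ± 0.17, whereas 30 mg/kg differed from vehicle by 0.08 ± 0.17 and 90 from 60 mg/kg by -0.25 ± 0.17. None of these 3 single steps passed in limma (adjusted p = 0.408, 0.970 and 1.0). The call rested on 6 of the 8 arrays. With 1 array left out the value stayed between -1.46 and -1.28, but the adjusted p was 0.0634 to 0.191 without either vehicle array, either 60 mg/kg array or either 90 mg/kg array, and 0.0257 and 0.0354 without the first and second 30 mg/kg arrays.

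**Figure D1:**
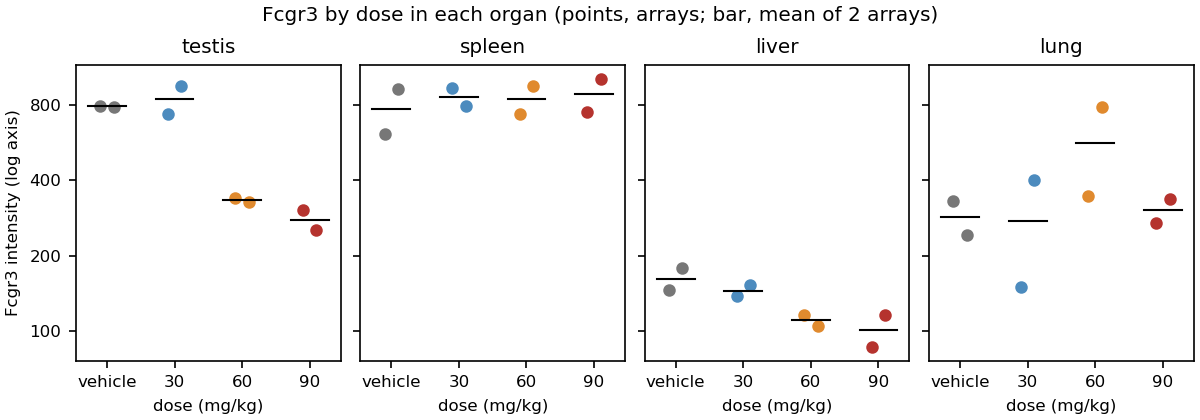
Intensity of the single Fcgr3 probe (log axis) in each array by dose, in the 4 organs, with a bar at the mean of 2 arrays. In testis the 4 arrays at 60 and 90 mg/kg lie between 253 and 341 and the 4 others between 735 and 949, while spleen shows no such step.

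Fcgr3 was the 1 macrophage marker of 13 tested that passed. Of the 13, 7 had values above 0 and 6 below, with a median of 0.03. C1qa, a complement subunit made by resident macrophages, had a value of 0.28 ± 0.11 without overlap of the sides, and Adgre1, which encodes the macrophage surface protein F4/80, of -0.22 ± 0.16. Neither passed in limma (adjusted p = 0.607 and 0.729). The summed intensity of the 12 markers other than Fcgr3 was 3164.3 to 3745.3 in the lower-dose arrays and 2800.7 to 3488.6 in the higher-dose arrays, so these groups overlapped. In whole tissue, fewer cells of a type and less RNA per cell cannot be told apart.

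The other Fc receptor genes were dim in testis. Fcgr2b, the inhibitory receptor, had an intensity of 15.1 to 30.2 in the testis arrays, against 331 to 473 in the spleen arrays. Fcgr4 lay below 8.3, the level taken as above background, in 7 of the 8 testis arrays, and at 406 to 4846 in spleen. Fcgr3 itself was about as bright in the lower-dose testis arrays as in spleen, where it ranged from 610 to 1016. Fcgr1, the high-affinity receptor, was below 8.3 in all 4 lower-dose arrays and reached 14.2 and 8.5 in array 2 at 60 mg/kg and array 2 at 90 mg/kg. Its value was 0.49, the highest of the macrophage markers. Fcgr1 was tested through the higher-dose arrays alone, which favours its place among the 7 markers above 0.

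In the liver Fcgr3 also lay lower at the higher doses, with 138 to 178 in the lower-dose arrays and 86.3 to 116 in the others. The liver sides did not overlap, but the difference of -0.48 ± 0.15 did not pass (limma, adjusted p = 0.337). Of the 9238 genes tested in both testis and liver, 10.4% had an unadjusted p under 0.05 there. Spleen and lung had values of 0.08 ± 0.19 and 0.56 ± 0.34, neither of which passed. The testis value differed from the mean of the other 3 organs by -1.42 ± 0.28, just short of the threshold (limma over all 32 arrays, adjusted p = 0.0508).

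Thap4, which encodes a protein with a THAP zinc finger and a haem-binding domain, was the 1 gene that changed between 60 and 90 mg/kg (0.00933% of genes). Its intensity was 173 and 150 in the vehicle arrays, 183 and 137 at 30 mg/kg, 136 and 165 at 60 mg/kg, and 620 and 719 at 90 mg/kg. Both 90 mg/kg arrays stood far above the 6 others, which lay between 136 and 183. The difference between 90 and 60 mg/kg was 2.04 ± 0.18 (limma, adjusted p = 0.0172), and between 90 mg/kg and vehicle 1.95 ± 0.18 (adjusted p = 0.0253). The first of these calls was lost without either vehicle array, either 60 mg/kg array or the first 90 mg/kg array, each of which left 0 genes. Across the sides the value was 0.94 ± 0.13 and did not pass (adjusted p = 0.277). In the other organs the same probe lay at 8.4 to 121 in every array. No gene passed between 30 mg/kg and vehicle, between 60 and 30 mg/kg or between 60 mg/kg and vehicle (smallest adjusted p in limma 0.923, 0.408 and 0.513). At an unadjusted p under 0.05 these 3 comparisons had 476 (4.44%), 417 (3.89%) and 980 genes (9.15%), and 90 against 60 mg/kg had 348 (3.25%).

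**Figure D2:**
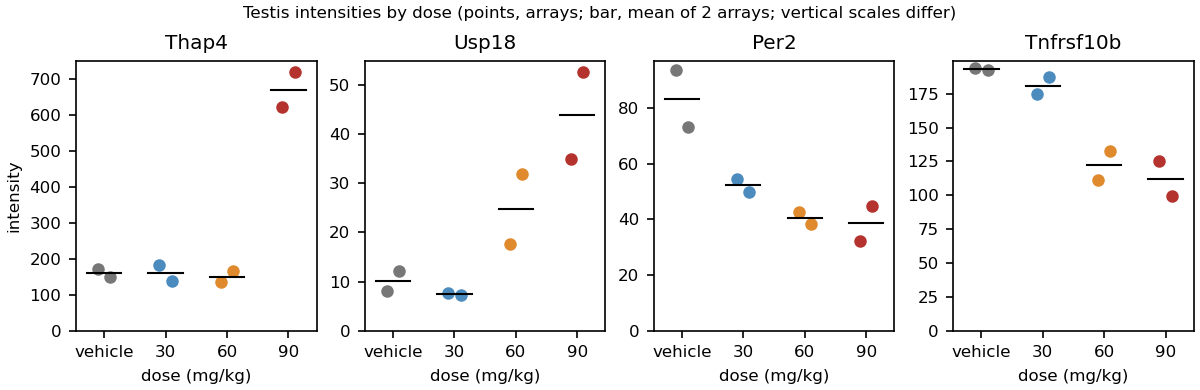
Testis intensities of Thap4, Usp18, Per2 and Tnfrsf10b by dose, with a point for each array and a bar at the mean of 2 arrays. Thap4 is high in the 2 arrays at 90 mg/kg only, and the other 3 genes separate the sides by smaller differences that did not pass.

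Interferon-stimulated genes had the highest median of the 37 gene lists (the added lung epithelial list aside), 0.29, but no member passed. Of the 45 genes on the array 28 were tested, and 23 of them had values above 0, against 49.2% of all genes tested. The list was dim, with a median lower-dose intensity of 16.9, against 90.3 for all genes tested. Dim members can be tested through the higher-dose arrays alone, which favours values above 0. An unadjusted p under 0.05 was found for 8 of the 28, all higher, where 4.05% of all genes were higher at that p. The sides did not overlap for 2 members, Usp18 and Dhx58 (2.91% of all genes were higher without overlap). The median was 0.03 for 30 mg/kg against vehicle, 0.17 for 60 mg/kg against vehicle and 0.47 for 90 mg/kg against vehicle. These comparisons share the vehicle arrays. Without array 2 at 60 mg/kg the list median was 0.14.

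Usp18 had the smallest p of the list. It encodes a protease that removes ISG15 from proteins and restrains the type I interferon receptor. Its intensity was 8.0 and 12.1 in the vehicle arrays, 7.6 and 7.2 at 30 mg/kg, 17.7 and 31.8 at 60 mg/kg, and 35.0 and 52.5 at 90 mg/kg. Every higher-dose array lay above every lower-dose array, and the difference was 0.98 ± 0.15 (limma, adjusted p = 0.408). A second Usp18 probe had a value of 0.70, and the remaining probe was above 8.3 in 1 array.

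Ifi27l2a and Ifit3 were dim and reached their highest values in the second arrays at 60 and 90 mg/kg. Ifi27l2a, an interferon-inducible mitochondrial protein gene, measured 7.2 and 14.8 in the vehicle arrays, 8.9 and 10.8 at 30 mg/kg, 10.3 and 46.3 at 60 mg/kg, and 28.2 and 82.5 at 90 mg/kg. Ifit3, an antiviral effector gene, measured 14.1 and 22.0 with vehicle, 11.2 and 12.2 at 30 mg/kg, 14.4 and 65.4 at 60 mg/kg, and 22.8 and 93.6 at 90 mg/kg. In both genes array 1 at 60 mg/kg lay within the range of the lower-dose arrays. Values were 0.98 ± 0.31 for Ifi27l2a and 0.90 ± 0.36 for Ifit3 (limma, adjusted p = 0.607 for each). Dhx58, a cytosolic RNA sensor of the RIG-I family, measured 372 to 428 in the lower-dose arrays and 456 to 552 in the higher-dose arrays (0.32 ± 0.11, adjusted p = 0.607). For Isg15, a ubiquitin-like protein attached to other proteins, the sides overlapped (0.47 ± 0.22, adjusted p = 0.635).

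Lung transcripts were present in the 3 higher-dose arrays where this list was high. Relative to the mean of the 4 lower-dose arrays, the median of the 28 genes was -0.07 in array 1 at 60 mg/kg, 0.41 in array 2 at 60 mg/kg, and 0.32 and 0.54 in arrays 1 and 2 at 90 mg/kg. The lung epithelial list summed to 52.7, 515, 322 and 307 in the same arrays. Array 1 at 30 mg/kg had the highest lung sum, 1142, and a median of -0.06 for the interferon-stimulated genes. The part of lung RNA in the testis values was not tested. Over the sides the lung epithelial list had a median of 0.44, with 6 of 6 tested genes above 0 and none called.

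**Figure D3:**
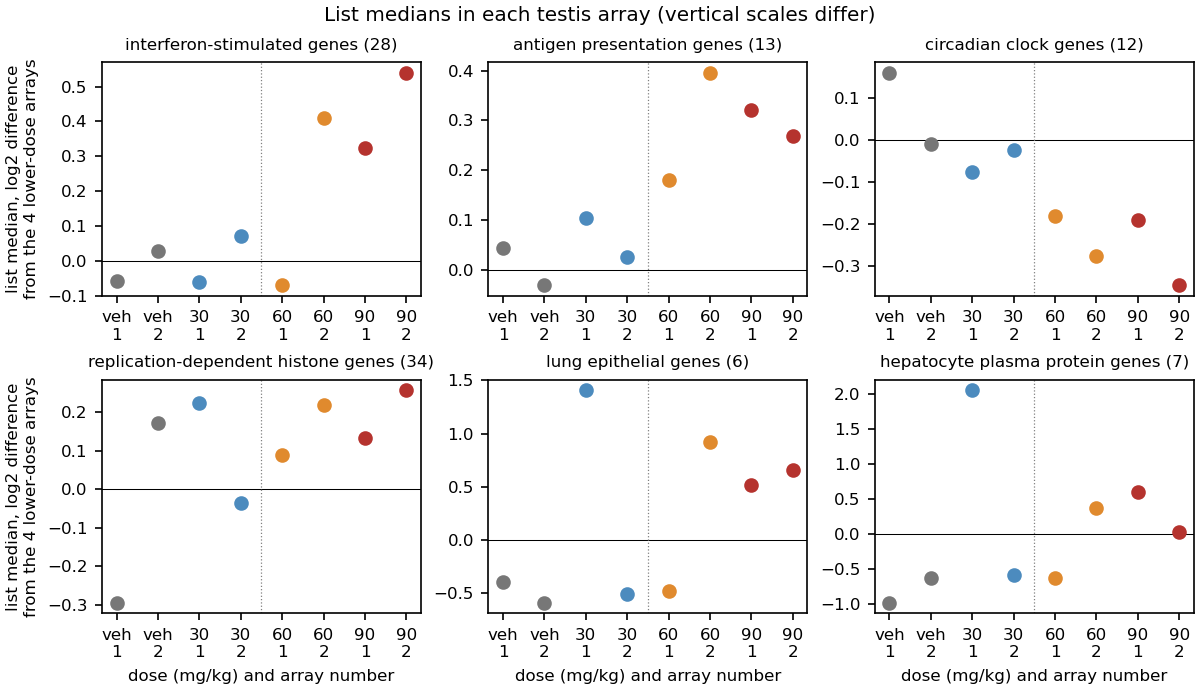
Median over a list's tested genes of the log2 difference from the mean of the 4 lower-dose arrays, for each of the 8 testis arrays and 6 lists, with vertical scales that differ. Interferon-stimulated genes lie at 0.32 to 0.54 in 3 higher-dose arrays and at -0.07 in the first 60 mg/kg array, and lung epithelial genes stand high in the same 3 arrays and in the first 30 mg/kg array.

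The promoters of this list often carry this element, shown here for 3 members whose values are given. The sequences are from RefSeq (GRCm38.p6) and cover the 160 bases before the start of the gene, 5′ to 3′ on its strand, with 2 copies of GAAA separated by any 2 bases, or the same on the other strand (TTTC, any 2 bases, TTTC), in capitals and overlapping matches joined. Isg15 (chr4:156200819-156200978, minus strand), Ifit3 (chr19:34583369-34583528, plus strand) and Gbp2, an interferon-induced GTPase gene (chr3:142620503-142620662, plus strand), read:
Isg15: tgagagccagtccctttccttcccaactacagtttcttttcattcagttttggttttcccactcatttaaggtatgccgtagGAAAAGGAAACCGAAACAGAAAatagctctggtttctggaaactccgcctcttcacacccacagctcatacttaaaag
Ifit3: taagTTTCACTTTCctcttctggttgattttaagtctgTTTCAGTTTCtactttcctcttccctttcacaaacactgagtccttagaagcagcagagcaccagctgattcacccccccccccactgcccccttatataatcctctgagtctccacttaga
Gbp2: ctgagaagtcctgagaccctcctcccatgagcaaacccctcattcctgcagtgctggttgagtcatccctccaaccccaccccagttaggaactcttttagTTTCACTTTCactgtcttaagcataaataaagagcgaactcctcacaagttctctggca

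A window from 250 bases before to 50 after the start was found for 21 of the 28 tested genes, and 11 of them (52.4%) held the element on either strand. Among all genes tested in testis with a window the share was 3.5% (304 of 8698), and among all genes with a window 3.99% (1079 of 27025). Of the 5 members higher at an unadjusted p under 0.05 that had a window, 2 held it, Ifit3 and Gbp2. A match is a description of the sequence and not of binding. Gbp2 measured 21.4 to 27.3 in the lower-dose arrays, 22.0 and 52.0 at 60 mg/kg, and 35.8 and 54.5 at 90 mg/kg (0.43 ± 0.19, adjusted p = 0.619 in limma).

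Genes of antigen presentation had a median of 0.23, and none of the 13 tested passed. Values were above 0 for 11 of them. Tap1, the peptide transporter of the class I pathway, was below 8.3 in all 4 lower-dose arrays and measured 7.3 and 8.6 at 60 mg/kg and 8.9 and 15.2 at 90 mg/kg. It was at least 1.06-fold higher at the higher doses, the lower side being taken at the background level, and its fitted value of 0.57 ± 0.12 did not pass (limma, adjusted p = 0.607). Tap1 was tested through the higher-dose arrays alone, which favours a value above 0. Psmb9, a subunit of the immunoproteasome, had a value of 0.57 and Nlrc5, the transactivator of class I genes, of -0.55, with adjusted p = 0.607 for each. By array the list median was 0.18 in array 1 at 60 mg/kg and 0.27 to 0.40 in the 3 others, against -0.03 to 0.10 on the lower side.

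Circadian clock genes had the lowest median of the 37 lists, -0.22, with 11 of 12 tested members below 0 and none called. Per2, a repressor of the clock loop, measured 93.6 and 73.0 in the vehicle arrays, 54.6 and 49.8 at 30 mg/kg, 42.5 and 38.4 at 60 mg/kg, and 32.3 and 44.8 at 90 mg/kg. The higher-dose arrays all lay below the lower-dose arrays, and the 30 mg/kg arrays lay between vehicle and the rest. The value was -0.57 ± 0.12 (limma, adjusted p = 0.607), and a second Per2 probe gave -0.55. Per3, its relative, had a value of -0.41, Per1 of -0.35, and the repressors Nr1d1 and Nr1d2 of -0.30 and -0.35. The labels give the interval since dosing but no time of day. By array, the list median was -0.18 to -0.34 in all 4 higher-dose arrays and -0.08 to 0.16 in the lower-dose arrays. It was -0.15 for 30 mg/kg, -0.35 for 60 mg/kg and -0.34 for 90 mg/kg, each against the same vehicle arrays, and -0.11 for 60 against 30 mg/kg. Part of the fall thus lay within the lower side. The summed intensity was 1531 to 2046 in the lower-dose arrays and 1410 to 1556 in the higher-dose arrays, so the sums overlapped. Leaving out single arrays gave medians from -0.34, without array 1 at 90 mg/kg, to -0.14, without vehicle array 1.

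Replication-dependent histone genes, which are copied in S phase and are also active in meiotic cells, had a median of 0.19, with 28 of 34 above 0 and none called. Vehicle array 1 was the lowest of the 8, with a summed intensity of 12580 against 16630 to 20270 in the others. Without it the median was 0.03. H2bc18 went the other way, with 52.2 to 75.5 in the lower-dose arrays and 31.6 to 58.5 in the higher-dose arrays (-0.40 ± 0.16, adjusted p = 0.607 in limma). Histones of testis and other variants had a median of 0.02, with H2al2a, a spermatid variant, at -0.19 ± 0.10. Histone chaperones and HMG proteins had a median of -0.03 over 22 genes. Nasp, the chaperone of linker and H3 histones in testis, measured 3583 to 4266 in the lower-dose arrays and 2878 to 3490 in the higher-dose arrays, without overlap but without passing (-0.26 ± 0.11, adjusted p = 0.623).

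No p53 target passed. The median was -0.03 over 24 tested genes, 10 above 0 and 14 below. The 95% interval of every one of the 24 lay within 2-fold, as for 98.7% of all genes tested. Cdkn1a, the cell cycle inhibitor and the classic target, measured 49.7 to 64.5 in the lower-dose arrays, 55.1 and 94.7 at 60 mg/kg, and 55.1 and 56.3 at 90 mg/kg. Only array 2 at 60 mg/kg exceeded the lower side, and the value was 0.13 ± 0.16 (limma, adjusted p = 0.841). Tnfrsf10b, a death receptor for TRAIL, had the smallest p of the list and lay lower: 175 to 194 in the lower-dose arrays against 112 and 133 at 60 mg/kg and 126 and 99.3 at 90 mg/kg. Its value was -0.61 ± 0.11 and did not pass (adjusted p = 0.554). Of the other 4 Tnfrsf10b probes, the 2 that were above 8.3 in all arrays gave -0.16 and 0.39, so the probes of this gene disagreed. Apoptosis genes had a median of 0.04 over 17 genes, and genes of DNA damage and repair of 0.01 over 20. Among the latter Atm, the kinase that signals double-strand breaks, had a value of -0.35 ± 0.10 (adjusted p = 0.607), with 71.1 and 69.0 in the vehicle arrays, 50.4 and 51.9 at 30 mg/kg and 39.2 to 50.9 in the higher-dose arrays.

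**Figure D4:**
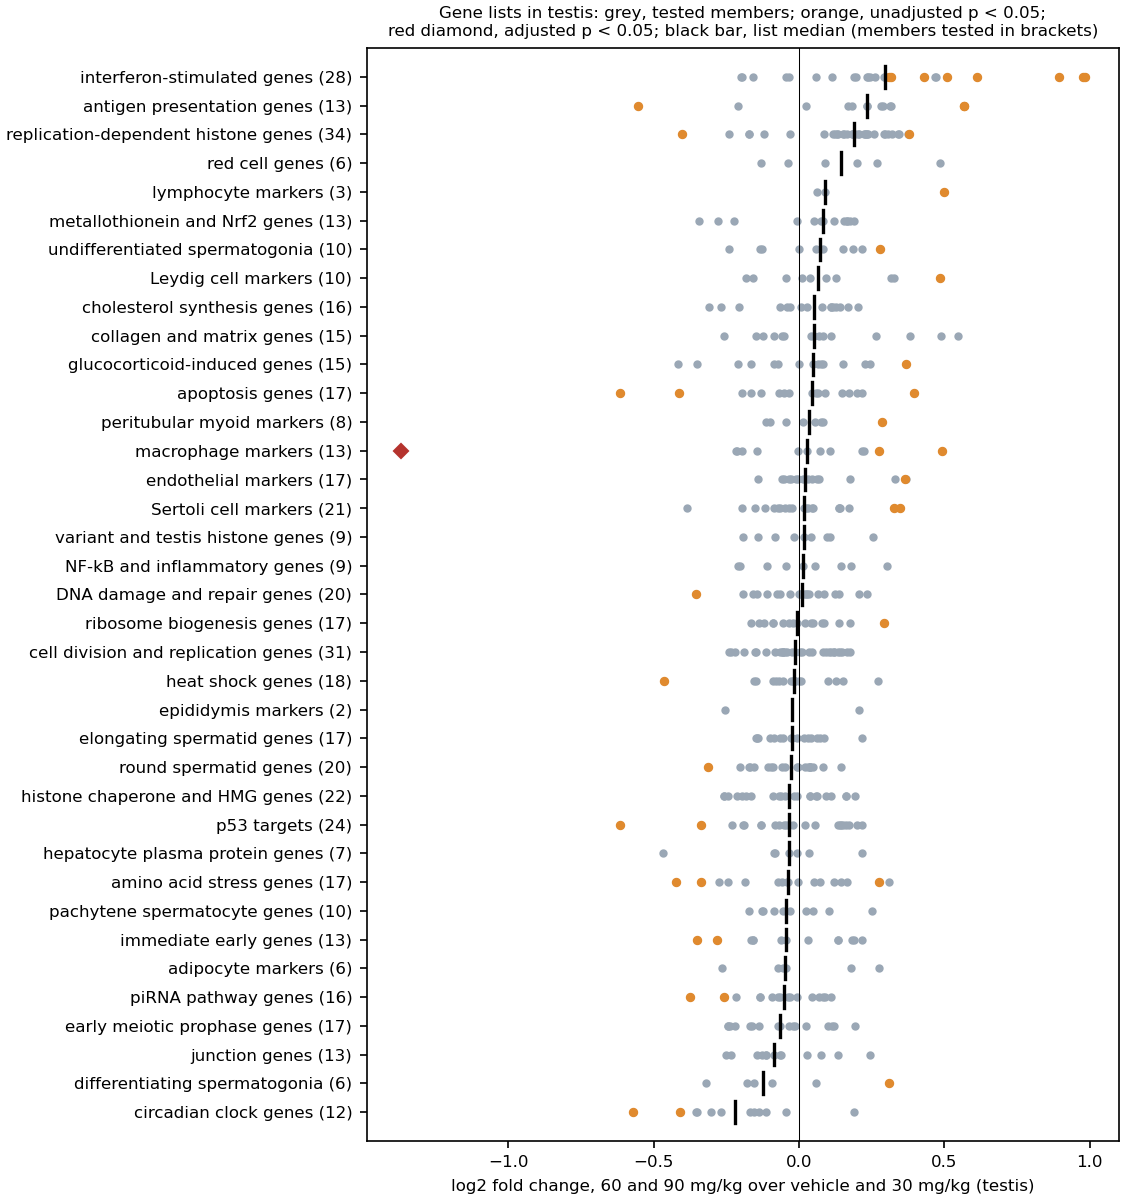
Log2 difference of each tested gene between the higher-dose and lower-dose testis arrays, by list, with the list median as a black bar and the number of tested genes in brackets. Of the 37 lists drawn, which leave out the lung epithelial list, interferon-stimulated genes have the highest median, 0.29, and circadian clock genes the lowest, -0.22, and Fcgr3 is the 1 gene that passed.

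The germ cell lists had medians from -0.12 to 0.07, and no member of these lists passed. Medians were 0.07 for undifferentiated spermatogonia (10 genes), -0.12 for differentiating spermatogonia (6 genes), -0.06 for early meiotic prophase (17 genes), -0.04 for pachytene spermatocytes (10 genes), -0.03 for round spermatids (20 genes), -0.02 for elongating spermatids (17 genes) and -0.05 for the piRNA pathway (16 genes). All of these genes had a 95% interval within 2-fold, as did 98.7% of all genes tested. The offset draws dim genes toward 0, and the undifferentiated spermatogonia list had a median lower-dose intensity of 33.4. For dim genes such an interval does not bound the change. The 25 early meiotic prophase genes on the array summed to 12690 to 15340 in the lower-dose arrays and 11700 to 12370 in the higher-dose arrays, without overlap. Their list medians by array did overlap, at -0.067 to 0.083 and -0.099 to -0.006. Neither measure was tested. Of the 17 tested, 12 had values below 0 and 5 above, and of the 16 piRNA pathway genes 11 and 5, where 50.8% of all genes lay below 0. Bcl6b, a transcription factor of spermatogonial stem cells, was below 8.3 in the 4 lower-dose arrays and was tested through the higher-dose arrays alone. Its fitted value was 0.28 ± 0.11, and that of Uchl1, a deubiquitinase of spermatogonia, was 0.31 ± 0.13. Smc1b, the meiotic cohesin subunit, measured 876 to 1217 in the lower-dose arrays and 769 to 940 in the higher-dose arrays (-0.25 ± 0.12).

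Ccna1, the cyclin of male meiosis, had a value of 0.25 ± 0.11, with 916 to 1372 on the lower side and 1282 to 1535 on the higher side. Catsper1, the sperm calcium channel, measured 781 to 1131 in the lower-dose arrays and 666 to 769 in the higher-dose arrays. These sides did not overlap, and the value was -0.31 ± 0.12. Prm3, a protamine family gene of spermatids, had 0.22 ± 0.11, and Asz1, a piRNA factor, -0.26 ± 0.10. None of these 7 genes passed in limma (adjusted p = 0.607 to 0.646). The 1404 genes enriched in testis (mean intensity at least 100 and at least 10 times that of liver) had a median of -0.03, with 557 above 0 and 847 below, and 67 lower (4.77%) and 29 higher (2.07%) at an unadjusted p under 0.05, against 3.99% and 4.05% of all genes. The 364 X-linked genes, which are silenced in meiosis, had a median of -0.002.

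Lists for the somatic cells of the testis had medians near 0. Sertoli cell markers had a median of 0.02 (21 genes), Leydig cell markers of 0.06 (10 genes) and peritubular myoid markers of 0.04 (8 genes). Each of these genes had a 95% interval within 2-fold, as did 98.7% of all genes tested. Shbg, the androgen-binding protein of Sertoli cells, measured 53.1 to 78.5 in the lower-dose arrays and 69.8 to 121 in the higher-dose arrays (0.35 ± 0.13). Tspo, a mitochondrial protein abundant in steroid-making cells, measured 78.3 in vehicle array 1, 131 to 174 in the other lower-dose arrays and 161 to 240 in the higher-dose arrays (0.48 ± 0.17). Mylk, a smooth muscle kinase, had 0.29 ± 0.12 without overlap. The adjusted p was 0.607, 0.607 and 0.608 in limma. Insl3, a peptide hormone of Leydig cells, had a value of 0.33, and the steroidogenic genes Star and Cyp17a1 of -0.16 and -0.18, none of which passed.

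Endothelial markers had a median of 0.02 over 17 genes, with Plvap, a protein of vessel fenestrae, at 0.36 ± 0.13. Red cell genes had 0.14 over 6, with Alas2, the first enzyme of haem synthesis in red cells, at 0.27 ± 0.13. Of the lymphocyte markers only 3 were detected, with a median of 0.09. Cd3d, a T cell receptor subunit in lymphocytes, measured 431 to 783 in the lower-dose arrays and 773 to 942 in the higher-dose arrays (0.50 ± 0.17, adjusted p = 0.607 in limma). Epididymis markers had -0.02 (2 genes, with Cst11 at 0.21 ± 0.12), adipocyte markers -0.05 (6 genes, with Cidea at 0.27 ± 0.16) and hepatocyte genes -0.04 (7 genes). With single arrays left out the adipocyte median ran from -0.16 (without array 2 at 60 mg/kg) to 0.13 (without array 1 at 60 mg/kg). The hepatocyte median ran from -0.84 to 0.82, without array 2 and array 1 at 30 mg/kg, and 1 of its 7 genes had a 95% interval within 2-fold. Fgg, a fibrinogen chain made in liver, had a value of -0.47 ± 0.42, which turned to 0.08 without array 1 at 30 mg/kg, where it measured 118 against 5.7 to 24.4 elsewhere.

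Stress and housekeeping lists had medians within 0.1 of 0. Cell division and replication genes had -0.01 over 31 genes, with Tpx2, a spindle assembly factor, at -0.24 ± 0.14. Heat shock genes had -0.02 over 18, with Cryab, a small heat shock protein, at 8.9 to 15.9 in the lower-dose arrays and 0.7 to 6.7, below the background level, in the higher-dose arrays (at least 1.15-fold lower, fitted value -0.46 ± 0.14). Immediate early genes had -0.04 over 13, and Dusp1, a MAP kinase phosphatase, measured 126 to 182 on the lower side and 101 to 123 on the higher side (-0.35 ± 0.12). Glucocorticoid-induced genes had 0.05 over 15, with Map3k6 at 0.37 ± 0.11, and amino acid stress genes -0.04 over 17, with the transcription factor gene Cebpb at -0.42 ± 0.12. For Cryab, Dusp1, Map3k6 and Cebpb, each the member with the smallest p of its list, the sides did not overlap. Members without overlap numbered 1 of 18, 1 of 13, 2 of 15 and 1 of 17 in these lists, against 5.07% of all genes tested. None of the 4 passed in limma (adjusted p = 0.607 for each). Cryab was tested through the lower-dose arrays alone, which favours its fall.

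Cholesterol synthesis genes had a median of 0.05 over 16, with Insig1, the sterol sensor partner, at -0.27 ± 0.14. Ribosome biogenesis genes had -0.01 over 17, with Rrp9, a component of the U3 particle, at 0.29 ± 0.10. Metallothionein and Nrf2 genes had 0.08 over 13, with Srxn1, which repairs oxidised peroxiredoxin, at -0.22 ± 0.11 without overlap of the sides. NF-kB and inflammatory genes had 0.01 over 9, with Nfkbia, the inhibitor of NF-kB, at 0.30 ± 0.17. Junction genes, among them those of the blood-testis barrier, had -0.09 over 13, with the adhesion molecule Nectin2 at -0.25 ± 0.12. Collagen and matrix genes had 0.05 over 15, with Col6a1 at 0.38 ± 0.20. No member of these 6 lists passed in limma.

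The same comparison called more genes in spleen. There 181 genes were higher (1.91%) and 221 lower (2.33%) of 9483 tested, in lung 6 were higher of 9287 (0.0646%), and in liver 1 was higher of 9238 (0.0108%), Cdkn1a. Only genes tested in testis were tested in these organs, with the probe brightest in testis, so the counts do not cover each organ's own genes. The vehicle spleen arrays held spermatid transcripts, with 19020 and 37270 for the elongating spermatid list against 626 to 9204 in the other spleen arrays. Their part in the 221 genes lower in spleen was not tested. The interferon-stimulated genes tested in testis had a median of 0.29 there, against 1.6 for spleen, 1.01 for lung and 0.65 for liver. Of these genes 23 passed in spleen. The mean summed intensity of the 45 list genes on the array was 3064 in testis, against 42190 in spleen, 22540 in lung and 12980 in liver. The offset therefore shrinks the testis values most, and the medians are not on a like scale. The difference between organs was tested per gene over all 32 arrays, as the testis value minus the mean of the 3 other organs, and 8 of 10713 genes passed, 4 with testis lower and 4 with testis higher (0.0373% each way). With single testis arrays left out 1 to 5 genes passed, and with liver and lung alone as the other organs 3 did.

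**Figure D5:**
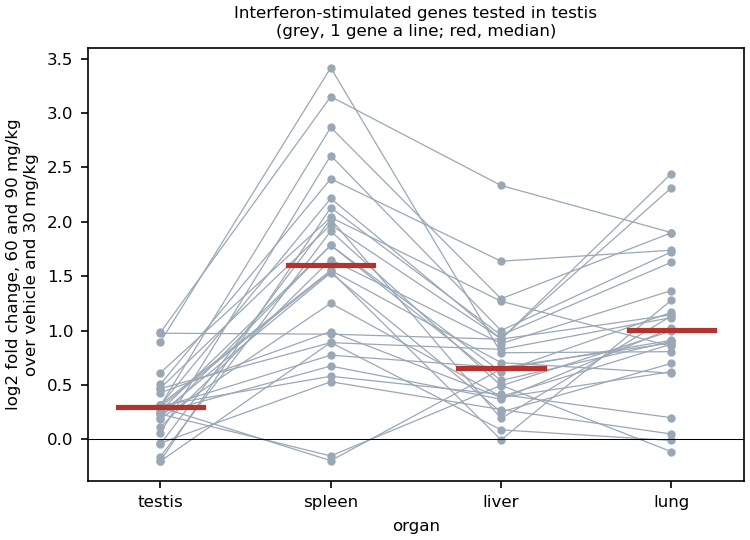
Log2 difference between the higher-dose and lower-dose arrays of the interferon-stimulated genes tested in testis, in each of the 4 organs, with a grey line for each gene and a red bar at the median. The median is 0.29 for testis and 0.65 (liver) to 1.6 (spleen) for the other organs. The list is dimmest in testis, where the offset shrinks values most, so the medians are not on a like scale.

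The 4 genes lower in testis than elsewhere included 2 interferon-stimulated genes and Cdkn1a. Mx2, an antiviral GTPase gene, had a value of 0.06 ± 0.16 in testis and of 2.61, 1.00 and 1.72 in spleen, liver and lung, a difference of -1.72 ± 0.26 (limma, adjusted p = 0.00695). Oasl1, a regulator of interferon translation, had -0.20 ± 0.15 in testis and 2.13, 0.96 and 1.63 in the others, a difference of -1.77 ± 0.31 (adjusted p = 0.026). Oasl1 was above 8.3 in fewer than 4 of the 8 testis arrays. The offset draws such dim values toward 0, so the difference alone does not show a smaller response in testis. Cdkn1a had 0.13 in testis and 0.55, 2.86 and 0.97 in spleen, liver and lung, a difference of -1.33 ± 0.25 (adjusted p = 0.0396). Pnpla1, an enzyme of skin lipid synthesis, measured 24.8 to 42.9 in the lower-dose testis arrays and 13.3 to 19.7 in the higher-dose ones (-0.50 ± 0.13), while spleen had 1.25, a difference of -1.14 ± 0.21 (adjusted p = 0.0392). Irf7, the master regulator of interferon genes, and Usp18 were just short of the threshold, with differences of -1.71 ± 0.34 and -1.48 ± 0.31 (adjusted p = 0.0508 and 0.0604). Both were dim in testis, with Irf7 above 8.3 in fewer than 4 of the 8 arrays.

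The 4 genes higher in testis than elsewhere were Scn8a, Cnr2, Pbk and Mgst3. Scn8a, a voltage-gated sodium channel gene, was below 8.3 in all 4 lower-dose testis arrays and measured 11.6 and 14.8 at 60 mg/kg and 17.0 and 12.7 at 90 mg/kg. The sides did not overlap, and the higher side was at least 1.23-fold higher, with a fitted value of 0.62 ± 0.10 (adjusted p = 0.422 in limma). Scn8a was tested through the higher-dose arrays alone, so the filter favours its rise, its lack of overlap and its difference from the other organs. Spleen, liver and lung had values of -0.52, -0.88 and -0.45, and the difference of 1.24 ± 0.16 passed (adjusted p = 0.00205). Cnr2, a cannabinoid receptor gene, had 0.41 ± 0.12 in testis and -0.31, -0.51 and -0.43 elsewhere (difference 0.82 ± 0.14, adjusted p = 0.026). Cnr2 too was dim in testis, above 8.3 in fewer than 4 of the 8 arrays.

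Pbk, a mitotic kinase gene, and Mgst3, a glutathione transferase gene, hardly differed in testis, with values of 0.15 ± 0.10 and 0.20 ± 0.14. Their differences of 1.33 ± 0.25 and 1.51 ± 0.29 (limma, adjusted p = 0.0396 for each) went with low values elsewhere: Pbk had -1.84 in spleen, -0.72 in liver and -0.97 in lung, and Mgst3 -3.53, -0.34 and -0.08. With liver and lung alone the differences were 1.00 and 0.40 (adjusted p = 0.262 and 0.684). Kif2c, a spindle kinesin gene, was just short (1.08 ± 0.21, adjusted p = 0.0508), with -1.28 in spleen, -0.29 in liver and -0.84 in lung. The vehicle spleen arrays held spermatid transcripts, with 19020 and 37270 for the elongating spermatid list against 626 to 9204 in the other spleen arrays. The vehicle lung arrays had 7580 and 5131, against 94.7 to 1557 in the other lung arrays. The part of these transcripts in the 3 differences was not tested.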

How the data were processed

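RNA from testis, spleen, liver and lung was hybridised to Illumina BeadChips. The deposited intensity values were background-subtracted and quantile normalized by the authors with GenomeStudio, per the submitters' processing notes and the values themselves: 22.01% to 22.47% of each array lay below 0, and sorted values of the 32 arrays differed by at most 1. No version of it is named there. A second table of non-normalized values, with 64 columns of array values, was not used, since its header repeats array names.

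Of 25697 probes, 23978 had 1 gene symbol in the platform annotation and 1719 had none. The brightest probe in testis stood for a gene, and 10713 of 16593 genes had it above 8.3 in at least 2 of the 8 testis arrays. A gene above 8.3 on 1 side only was tested through that side, which favours its direction and a lack of overlap. Values below 0 were set to 0, and log2(intensity + 16) was fitted in limma 3.58.1 (R 4.3.3) with a mean for each dose. The main contrast was the mean of 60 and 90 mg/kg minus that of vehicle and 30 mg/kg. The offset understates changes of dim genes. In spleen, liver and lung the same probes were fitted, for the genes tested in testis that lay above 8.3 in at least 2 arrays of that organ. The organ test fitted all 32 arrays. A bound, "at least N-fold", sets a dim side at the background level. The number of arrays limits the precision. Promoters came from RefSeq (GRCm38.p6).

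The members and the 37 gene lists were chosen with earlier results of these data known. The genes named were those called, by size; of each list the called members, or the 1 with the smallest p; the 5 with the smallest p each way in the organ test; and Cdkn1a and Isg15. Further examples were chosen after their values were seen. Simulated data of 10713 genes for the main contrast had independent normal noise and 100 genes changed at each size, all at once. The test recovered 39% of genes changed by 0.5 (log2), 97% by 1 and 100% by 2, with 10 false calls. With so many genes changed, the Benjamini-Hochberg cut-off is easier to pass than in the testis data. The shares therefore do not give the chance of calling a changed gene in testis, where Usp18 at 0.98 and Thap4 at 0.94 did not pass. Alternatives covered the filter, offset, floor, normalization, choice of probe, variance model, replicate numbers and each array left out. Figures were drawn with matplotlib 3.10.9.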

Additional observations from a re-analysis of the deposited data

Results flagged for a closer look

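Of 102 sides of 4 testis arrays examined, 9 held an array apart from its 3 others by Dixon's test at the 95% level, where chance alone flags about 1 in 20 sides. The sides were not a random set, since most named genes were picked by p and the lung epithelial list was added after its values were seen. Array 1 at 30 mg/kg was apart in both foreign-organ lists, with sums of 1870.0 for hepatocyte genes and 1142.0 for lung epithelial genes, and also for Bcl6b (intensity 1.6) and Irf7 (8.7, the others being below 0). Values below 0 were set to 0 before the test, so the 3 other Irf7 values were equal and any value above 0 would be flagged. Bcl6b was below the background level in all 4 arrays of that side. Vehicle array 1 was apart for Nasp (4266.3), Pnpla1 (42.9) and Cidea (55.8, the lowest of its side). Array 1 at 60 mg/kg was apart for Catsper1 (665.7), and array 2 at 60 mg/kg for Cdkn1a (94.7).

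The response in testis differed from the mean of spleen, liver and lung for 8 genes (limma, adjusted p under 0.05). The differences on the log2 scale were -1.77 for Oasl1, -1.718 for Mx2, -1.325 for Cdkn1a and -1.144 for Pnpla1, and 0.8237 for Cnr2, 1.236 for Scn8a, 1.328 for Pbk and 1.51 for Mgst3. Oasl1, Cnr2 and Scn8a were dim in testis, where the offset draws values toward 0. With liver and lung alone as the other organs Mgst3 differed by 0.40 and did not pass (adjusted p = 0.684).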

How the results depend on the processing

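Fcgr3 kept its direction under all 20 alternatives, with values from -1.46 to -1.28 and adjusted p from 6.67e-05 to 0.424 (limma), and passed in 10. Genes lower numbered 0 with no detection filter, with a floor in place of the offset, with all 32 arrays in 1 fit, and with number 1 of vehicle and 30 mg/kg left out (an alternative chosen after seeing the data), and 0 to 2 with single arrays left out. Without vehicle array 1 the 1 gene was Tesk1, and without the second 30 mg/kg array the 2 were Fcgr3 and Pnrc2. Genes higher numbered 1, Thap4, with an offset of 50 and with a trended, robust prior, and 0 with any single array left out. For 30 mg/kg against vehicle the count was 0 to 5 with single arrays left out and 2 without number 1 of both groups. For 90 against 60 mg/kg it was 0 with no filter, the floor, all 32 arrays or the replicate block, and 0 to 3 with single arrays left out. For 60 against 30 mg/kg it was 1 with the trended prior and 0 to 2 with single arrays left out. The organ test gave 3 genes with liver and lung only, 21 with an offset of 50, and 1 to 5 with single arrays left out. The fits without an array have fewer samples, and the fit with no filter tests more genes; for the rest the cause was not tested.

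Equal replicate numbers did not pair the arrays (correlations of deviations -0.171 to 0.16), and with the replicate block the adjusted p of Fcgr3 was 0.0498. Signs turned for Tnfrsf10b (0.39) and Srxn1 (0.14) with the brightest probe over all 32 arrays, for Oasl1 (0.051) with the mean of its probes, and for Mgst3 (-0.014) and Mx2 (-0.040) without number 1 of vehicle and 30 mg/kg. With single arrays left out Fgg ranged from -1.021 to 0.083, Mx2 from -0.12 to 0.24 and Cdkn1a from -0.025 to 0.29. In 27 of the 37 lists the median crossed 0 under at least 1 alternative. Those of the interferon-stimulated, antigen presentation, circadian and replication-dependent histone genes did not. Nor did those of undifferentiated spermatogonia, differentiating spermatogonia, early meiotic prophase, red cells, lymphocytes, and metallothionein and Nrf2 genes. Genes near an intensity of 8.3 are limited by signal over background.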

Other observations

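Some genes had a pair of levels that did not follow dose; those given here were chosen after their values were seen, and Cfap69 and Cops8 had the largest differences between the sides of all genes tested. Cfap69, a gene of sperm flagellum assembly, measured 1930.2 and 2298.1 in the vehicle arrays, 45.1 and 1865.6 at 30 mg/kg, 29.9 and 35.5 at 60 mg/kg, and 52.9 and 1823.2 at 90 mg/kg. Arrays of 1 dose thus lay at opposite levels, and the difference of -2.69 ± 1.15 did not pass (limma, adjusted p = 0.615). A second Cfap69 probe gave -1.72.

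Cops8, a subunit of the COP9 signalosome, was below 8.3 in 6 testis arrays and measured 282.0 and 279.5 in the second arrays at 60 and 90 mg/kg (1.89 ± 0.98, adjusted p = 0.652 in limma). Its levels in liver were likewise 4.2 to 16.8 in 5 arrays and 191.0 to 235.8 in 3. Tesk1, a testis kinase gene, measured 2150.3 in vehicle array 2 and 92.7 to 166.2 in the other 7 arrays. Pnrc2, a factor in mRNA decay, measured 359.6 and 259.4 with vehicle, 232.0 and 17.2 at 30 mg/kg, 26.8 and 20.6 at 60 mg/kg, and 210.3 and 203.2 at 90 mg/kg (-0.86 ± 0.50, adjusted p = 0.67 in limma).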
